A study of Mus musculus with 30 samples.

Results

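In mouse embryonic stem cells, 1081 bins of RNA stayed enriched by an m6A antibody when METTL14 was absent. They were selected on the deposited calls of the immunoprecipitated libraries. A bin is a stretch of 100 nt within 1 gene on 1 strand. It was taken when the same bin was listed in all 3 wild-type and all 3 Mettl14 knockout lists. They are called kept bins here, out of 62091 distinct bins in the 15 lists of the series. The 9081 bins listed in all 3 wild-type lists and in no knockout list serve as the comparison and are called dependent bins.

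The lines were mouse embryonic stem cells of the C57BL/6 strain. WT is the unmodified line and KO lacks METTL14. KO+WT, KO+5RK and KO+13RK are, by their labels, knockout cells with wild-type METTL14 or with 1 of the arginine mutants called 5RK and 13RK. These are the rescue lines, and the labels do not say whether they were made from the KO line used here. The labels give neither the way METTL14 was put back nor whether a line is 1 clone. Each line has 3 immunoprecipitated and 3 input libraries. All cells were grown on gelatin with leukemia inhibitory factor, and no label says that replicates were separate cultures, so p-values measure the spread between these libraries. A call list reports no expression, so the labelled cell type could not be checked by its markers. The authors' lists held between 22217 and 23164 rows in WT and between 6328 and 8593 in KO. The rescue lists held between 9588 and 17185.

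N6-methyladenosine, or m6A, is placed on adenosines of messenger RNA by a complex in which METTL3 is the catalytic subunit and METTL14 holds the RNA. In most transcripts it gathers near the stop codon and in the following untranslated region. Other enzymes make the same or a similar mark. METTL16 methylates hairpins of the Mat2a transcript, and PCIF1 methylates a cap-adjacent adenosine to m6Am, which m6A antibodies also bind. Whether a kept bin carries any of these marks was not tested here.

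Kept bins were common in the first 200 nt of a transcript, and the 30 bases around the annotated start are shown for 8 of these transcripts. The middle of their kept bins lay 31.5 to 160.5 nt into the transcript, and the bins of Hist1h2bg, Malat1 and Trp53 reach into the bases shown. The lines run from 10 bases before the start to 20 bases from it on, 5′ to 3′ on the transcript's strand. The capital marks the first transcribed base of the RefSeq annotation on GRCm38.p6. They were chosen because the first 5 belong to start bins called in all 9 rescue lists. The bins of Trp53 and Hist1h4b were called in all 3 KO+WT lists and in no KO+13RK list. Nr0b1 is a pluripotency gene.
Hist1h2bg: ctcatttcctGttttatctttctctttgtt
Hist1h2bb: tataaataaaAtaagtgcgccctcactgcc
Malat1: ggctctgcgtCaggcattcaggcagcgaga
Taco1: cttcgcggtcActcaaggcagtgcagcgtc
Mpnd: gtccccgcgcGgggaggagcccgttcactc
Trp53: ggattgggacTttcccctcccacgtgctca
Hist1h4b: ttgaagttctCaaccaggtccgataagagc
Nr0b1: gccactgggcAgaacgagctacaggagcct
These windows lie at chr13:23571390-23571419 for Hist1h2bg, chr13:23746724-23746753 for Hist1h2bb and chr19:5802653-5802682 for Malat1 on the minus strand. Taco1 is at chr11:106066081-106066110, Mpnd at chr17:56009191-56009220 and Trp53 at chr11:69580349-69580378. Hist1h4b is at chr13:23756927-23756956 and Nr0b1 at chrX:86191765-86191794, and all but Malat1 are on the plus strand. The first base was A in 3 of these 8 transcripts, C in 2, G in 2 and T in 1.

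By the rule, 9.55% of the 11324 bins listed in all 3 WT lists were kept. Seen from the knockout, 46.0% of the 2352 bins listed in all 3 KO lists were kept. Bins just outside the rule behaved as a step below it. The 508 bins of 3 WT and 2 KO lists were called on average in 73.8% of KO+WT, 61.3% of KO+5RK and 56.0% of KO+13RK lists. The 335 bins of 2 WT and 3 KO lists were called in 60.3%, 53.4% and 50.9%. For the kept bins these shares were 87.4%, 78.2% and 75.0%. These are descriptions on either side of a threshold, with no test.

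Position in the gene was not used by the rule. Of the kept bins, 902 lay inside the RefSeq span of their gene and could be placed. A bin is called near the start when its middle is at most 500 nt from that end of the span. In the kept bins 178 were near the start, or 19.7%, against 1.05% of the 8157 placed dependent bins and 3.61% of all placed WT bins. A bin is near the end when its middle is at most 2000 nt from it, which held for 18.7% of kept and 39.6% of dependent bins. Compared with dependent bins, kept bins were thus less often near the 3′ end, where m6A usually lies, and more often near the start. This was not particular to kept bins. Of the 566 placed bins among the 615 called in all 3 KO lists and in no WT list, 25.1% were near the start and 13.1% near the end. These windows are fixed distances, while the genes differed in length. The median RefSeq span was 26444 nt over placed kept bins and 44636 nt over placed dependent bins. Exons and untranslated regions were not annotated here.

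Measured from the nearest RefSeq start on the strand, kept bins piled up just inside the transcript. The middle lay 0 to 100 nt from the start in 57 kept bins and 100 to 200 nt in 71. Only 2 lay in the 100 nt before it. Among dependent bins, the first 100 nt held 14 and the next 100 nt held 21. From 50 nt before the start to 200 nt after it, the kept bins held 129, or 11.9%, and the dependent bins 0.418%. The bins of all 3 KO and no WT lists held 15.0% there, a higher share than the kept bins.

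**Figure D1:**
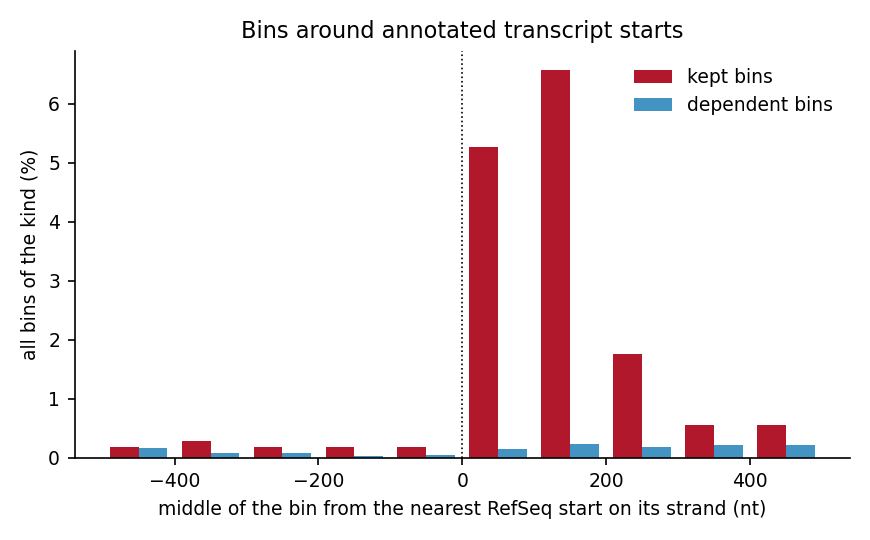
Share of all kept (red) and all dependent (blue) bins, in percent, whose middle lies at each distance in nt from the nearest RefSeq start on the same strand, in steps of 100 nt. Kept bins peak at 5.27% and 6.57% in the first and second 100 nt after the start, and the highest step of the dependent bins is 0.231%.

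The RefSeq starts nearest to these 129 bins were read for their first base. The bins fell on 116 annotated starts, of which 32.8% began with A, 41.4% with G, 19.0% with C and 6.90% with T. Among all 32851 annotated starts 34.4% began with A, and among the 4804 starts of genes with a bin in all 3 WT lists 27.2% did. Starts chosen in the same way for other bins had higher shares of A than the kept bins. The share was 44.4% of 36 starts for dependent bins and 36.3% of 212 for all bins of 3 WT lists. For bins of all 3 KO and no WT lists it was 40.2% of 82. The letters GGAC, the core of the common m6A motif, were in the first 50 bases after 21.6% of the 116 starts, and their reverse complement after 16.4%. Over all starts the shares were 18.9% and 17.4%, and over the 4804 starts 19.3% and 20.1%. An annotated first base can be off by some bases from the one used in these cells.

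The kept bins near a start came from 161 genes. In 46 of these 161 genes other bins were dependent on METTL14. That is a smaller share than the 42.1% (280 of 665) over all genes with a kept bin. The 46 genes held 125 placed dependent bins, of which 44.8% were near the end of the gene and 2 were near its start. Over all placed dependent bins 39.6% were near the end. In these 46 genes a call at the start and METTL14-dependent calls further along were thus listed side by side.

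Among start bins called in all 9 rescue lists, the 6 with the highest mean ranks there are named. Enrichment is the authors' own score and its scale is not given, so bins are compared by its rank within a list, where 100 is the highest. Hist1h2bg, a histone H2B gene (H2bc8 in RefSeq), had its kept bin at chr13:23571409-23571508. The gene is so short that this bin counts as near both ends. Its score was 3.03, 3.53 and 4.11 in the WT lists and 3.50, 5.04 and 3.91 in the KO lists. It read 5.20, 4.66 and 3.28 in KO+WT, 3.57, 4.54 and 3.56 in KO+5RK, and 4.62, 2.66 and 4.59 in KO+13RK. The mean rank of this bin over the rescue lists was 99.5, near the top of every line. Hist1h2bb, another H2B gene (H2bc3 in RefSeq), followed with a mean rank of 87.8 at chr13:23746791-23746890. Histone genes come in near-identical copies, so reads may have been shared between them. The long noncoding RNA Malat1 had a mean rank of 85.5 at chr19:5802591-5802690. Taco1, which activates translation of a mitochondrial cytochrome oxidase subunit, had 77.8 at chr11:106066162-106066261. Nfu1, an iron-sulfur cluster protein gene, had 75.7 at chr6:87009237-87009336, and Mpnd 75.5 at chr17:56009312-56009411.

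Start bins ranked above other kept bins by enrichment. Among kept bins called in all 15 lists, 74 were near a start and 320 were placed elsewhere. Their median ranks differed in the same direction in each of the 15 lists. The start bins were higher by 7.44 to 22.4 points in WT, 17.3 to 24.1 in KO, 5.59 to 23.6 in KO+WT, 3.43 to 12.9 in KO+5RK and 9.19 to 19.4 in KO+13RK. This ordering was looked at after the values were seen and carries no test.

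Malat1 holds both kinds of position, and their order turned over between lists. The start bin had scores of 2.05, 2.68 and 3.00 in WT and of 2.34, 2.27 and 3.22 in KO. A bin 1231.5 nt into the transcript, at chr19:5801391-5801490, had 3.43, 3.31 and 3.59 in WT and 1.69, 0.91 and 0.74 in KO. The inner bin of Malat1 was thus the higher in 3 of 3 WT lists and the start bin in 3 of 3 KO lists. With METTL14 put back the inner bin was higher in 3 of 3 KO+WT and 3 of 3 KO+5RK lists, and in 2 of 3 KO+13RK lists. In Taco1 the bin 7354.5 nt from the start outranked the start bin in 3 of 3 lists of WT and of each rescue line, and in 1 of 3 KO lists. A bin can therefore meet the rule of being kept while its order within the list differs between lines. Both genes were chosen for this after their values were seen.

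The rescue lists were not used by the rule. At genes of chromosome Y the rescue lists stand apart from the WT and KO lists, and the mutant lists from those of KO+WT. Gm47283 was listed in all 6 WT and KO lists and in none of the 9 rescue lists, and Eif2s3y in all 6 KO+5RK and KO+13RK lists and in none of the other 9. The labels do not say whether the rescue lines share their origin and handling with WT and KO or with each other. Such differences therefore cannot be told apart from that of putting METTL14 back. Between KO+WT and the mutant lines, they cannot be told apart from the arginine mutations. Most kept bins were still called. Of the 1081 kept bins, 819 were in all 3 KO+WT lists (75.8%), 658 in all 3 KO+5RK lists (60.9%) and 631 in all 3 KO+13RK lists (58.4%). The same shares over all bins of 3 WT lists were 44.8%, 30.3% and 23.3%. Per list, KO+WT called 88.2%, 90.7% and 83.5% of the kept bins, KO+5RK 84.6%, 79.0% and 70.9%, and KO+13RK 73.5%, 77.8% and 73.8%. KO+WT and KO+13RK did not overlap, while KO+5RK overlapped both. The mean was 87.4% ± 3.61 (SD, n = 3) for KO+WT, 78.2% ± 6.93 for KO+5RK and 75.0% ± 2.41 for KO+13RK. The lines did not differ past the threshold of 0.05 (two-sided exact permutation test over the 9 lists, p = 0.0857, 0.129 adjusted over 6 tests). The mean of KO+WT exceeded that of KO+13RK by 12.4 points (exact permutation p = 0.1, the smallest that 3 lists against 3 allow, 0.3 adjusted over 3 pairs). Without KO replicate 2 the p over the lines was 0.0464, without KO+5RK replicate 1 it was 0.0393, and without KO+5RK replicate 3 it was 0.0214. With all lists reduced to equal length, the difference between KO+WT and KO+13RK was 6.55 points. In bulk libraries a missing call cannot be told apart from fewer transcripts, fewer cells or a shorter list.

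The dependent bins were called less in every rescue list. The KO+WT lists averaged 62.3% ± 2.69 of them, those of KO+5RK 48.9% ± 6.11 and those of KO+13RK 36.9% ± 3.54 (n = 3). Within a list the kept bins were ahead by 30.8 points on average and in 9 of 9 lists (two-sided exact sign-flip permutation test, p = 0.00391, the smallest possible, 0.00781 adjusted over 6 tests). Kept bins had to be in 6 lists and dependent bins in 3, so the kinds differ in how often they were called to begin with. With the comparison limited to bins of the 280 genes that hold both kinds, kept bins were ahead by 36.2 points (exact permutation p = 0.00391).

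The kept bins led by 25.1 points in KO+WT lists, by 29.2 in KO+5RK lists and by 38.1 in KO+13RK lists, a difference of 13.0 between the first and last line. On the percent scale this differed between lines (two-sided exact permutation test, p = 0.00357, the smallest possible, 0.00781 adjusted). As log odds, a scale on which shares close to 100% are not compressed, the lead differed by 0.177 and the exact permutation test gave p = 0.354. That alternative was chosen after seeing the data. The widening thus depends on the scale on which shares are compared.

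**Figure D2:**
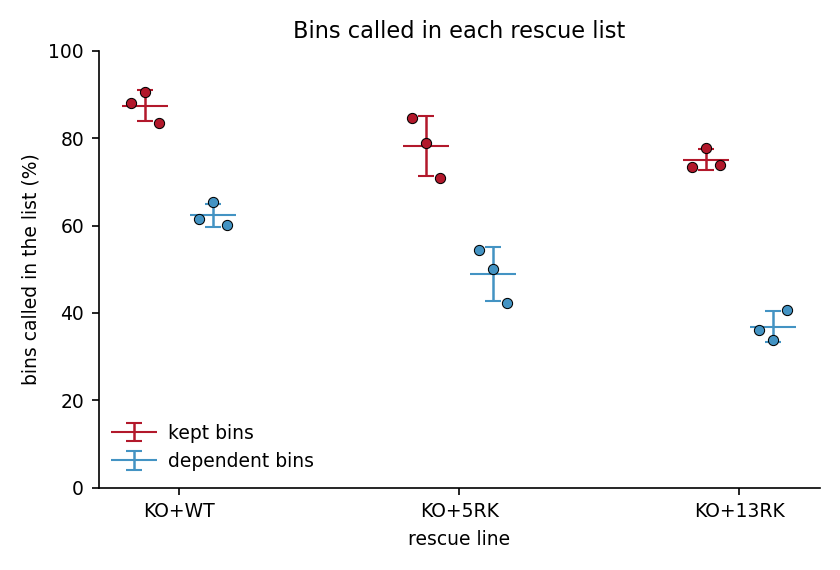
Percent of kept bins (red) and dependent bins (blue) called in each of the 3 lists of KO+WT, KO+5RK and KO+13RK. Points are lists, bars are the mean with its SD (n = 3), and kept bins lie above dependent bins in 9 of 9 lists.

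Counted bin by bin, 495 kept bins (45.8%) were in all 9 rescue lists and hence in all 15 lists of the series, where the share over all bins of 3 WT lists was 16.5%. In the dependent bins it was 13.0%. At the other end, 29 kept bins (2.68%) were in no rescue list, against 9.01% of all bins of 3 WT lists and 10.5% of dependent bins. The kept bins were crowded at 8 and 9 lists, whereas the dependent bins were spread over all numbers.

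**Figure D3:**
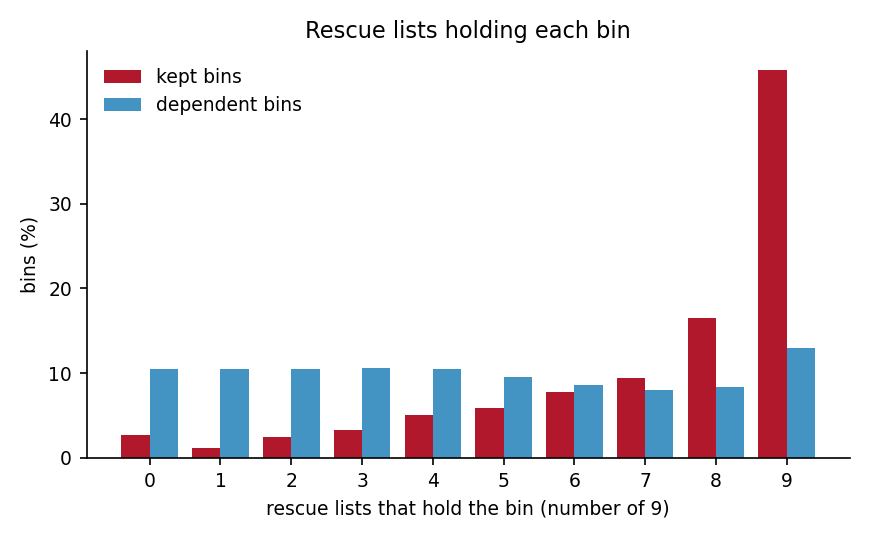
Percent of kept (red) and dependent (blue) bins by the number of the 9 rescue lists that hold them. Kept bins rise to 45.8% at 9 lists, while dependent bins lie between 8.03% and 13.0% at every number.

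Kept bins were not the most enriched bins. Their median rank by enrichment in WT was 33.3, against 49.2 for dependent bins. By p their median rank was 73.4 against 65.8. The same held in the rescue lists, where the rule had no part. Among bins called there, kept bins ranked 14.2 points lower by enrichment on average, in 9 of 9 lists (two-sided exact sign-flip permutation test, p = 0.00391, 0.00781 adjusted). When bins below the median enrichment were removed from every list, 98 kept bins were left and the difference turned to 7.25 points higher. Kept bins thus combined lower ranks by score with higher ranks by p, and the coverage behind them is unknown.

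The strength of the WT call went with what happened in the rescue lines. Bins of 3 WT lists were divided into 5 groups of equal size by their mean p rank in WT. In the weakest group, KO+WT lists called 75.8% of kept and 37.0% of dependent bins. In the strongest group they called 92.9% and 92.6%, so the kinds no longer differed by much in KO+WT. In KO+13RK the strongest group still stood at 85.6% of kept and 66.8% of dependent bins, and in KO+5RK at 89.1% and 81.6%. Kept bins lay above dependent bins in all 5 groups of every rescue line.

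**Figure D4:**
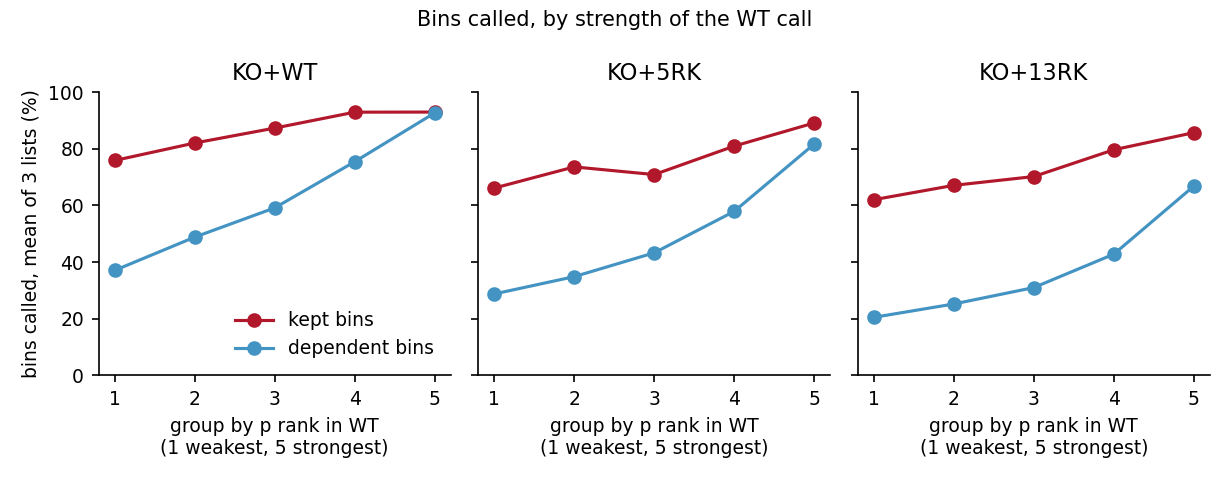
Percent of kept (red) and dependent (blue) bins called, as the mean of the 3 lists of each rescue line, by group of p rank in WT, from 1 (weakest) to 5. In the strongest group the kinds meet in KO+WT, at 92.9% and 92.6%, and stay apart in KO+13RK, at 85.6% and 66.8%.

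Kept bins near a start were called about as often as the others in the rescue lists, with a difference of -1.29 points (two-sided exact sign-flip permutation test over 9 lists, p = 0.629). In KO+WT replicate 3 the difference was -15.9 points, and without that list the difference over the rest was 0.539 points. This difference changed over the lines by 7.66 points (exact permutation p = 0.425), by 2.63 points without KO+WT replicate 3 and by 4.61 without KO+13RK replicate 2. Of the start bins 41.6% were in all 9 rescue lists, and of the other placed kept bins 44.2%.

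The kept bins came from 665 genes, which is 13.7% of the 4850 genes with a bin in all 3 WT lists. Most of these genes, 550, had 1 kept bin, 92 had 2 to 4, and 23 had 5 or more and together held 327 bins. Of the 665 genes, 280 (42.1%) also had a dependent bin. A kept bin directly bordered another kept bin in 34.2% of cases, and a dependent bin bordered another dependent bin in 53.7%.

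Transcripts of the translation and splicing machinery held many kept bins. In the list of translation factors, 13 of the 25 genes with a bin in all 3 WT lists had a kept bin (52.0%, beside 13.7% over all genes). They held 32 kept bins, called in 91.7% of KO+WT, 90.6% of KO+5RK and 75.0% of KO+13RK lists. Eef2, the translocase of elongation, had 12 kept bins, of which 12, 9 and 10 were called in KO+WT, 12, 10 and 11 in KO+5RK, and 10, 11 and 10 in KO+13RK. All lines of Eef2 overlapped. Eif3a, a scaffold subunit of initiation factor 3, had 7 kept bins, all 7 called in each KO+WT list. In KO+13RK the lists called 0, 7 and 4 of the Eif3a bins, so these 3 lists disagreed with each other. Eef1b2 and Eif4e2 had 2 kept bins each. Because the rule used the WT and KO lists, counts of genes with a kept bin are descriptions, as are all the counts of this kind that follow. The share over all genes, 13.7%, is the one to set beside each of them.

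Of the splicing factors and RNA helicases, 17 of 35 had a kept bin (48.6%). Srrm2, a large protein of nuclear speckles, had 20. Its bins were called in 16, 17 and 17 cases in KO+WT, in 15, 9 and 5 in KO+5RK, and in 8, 11 and 11 in KO+13RK. The KO+WT lists of Srrm2 lay above all mutant lists. The same held for its 24 dependent bins. Of these, 17, 14 and 10 were called in KO+WT, 8, 3 and 0 in KO+5RK and 2, 0 and 2 in KO+13RK. The helicase gene Ddx17, with 3 kept bins, and the splicing factor gene Rbm39, with 2, had each bin called in all 9 rescue lists. Tra2b, a regulator of alternative splicing, had 2 at its start with 17 of 18 calls.

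Ribosomal protein genes had a kept bin in 8 of 26 cases (30.8%), and Rpl4 had 3, each called in all 9 rescue lists. Histone genes had one in 11 of 21 cases (52.4%). Of these, H2afx, the variant phosphorylated at DNA breaks, had 2 called in all 9 lists. In the stress response and chaperone list 3 of 11 genes had a kept bin. Hsp90ab1, the constitutive cytosolic HSP90, had 13 kept bins and no dependent bin. It was called in 12, 12 and 12 cases in KO+WT, 13, 12 and 12 in KO+5RK, and 11, 13 and 12 in KO+13RK. These 3 lines of Hsp90ab1 were alike in range.

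METTL14 is a nuclear protein, and whether this bears on the calls in mitochondrial RNA was not tested. RNA of the mitochondrial genome held 19 kept bins and 0 dependent bins. Of 8 such genes with a bin in all 3 WT lists, 7 had a kept bin. The ribosomal RNA genes mt-Rnr1 and mt-Rnr2 and the NADH dehydrogenase gene mt-Nd2 had 5 each. Of the calls that the list could have, KO+WT made 94.7%, KO+5RK 96.5% and KO+13RK 94.7%. Mitochondrial calls as a whole were not the same in WT and KO. The rows of mt-Cytb numbered 0, 0 and 2 in WT and 3, 6 and 8 in KO. Those of mt-Nd5 numbered 2, 1 and 2 in WT and 6, 5 and 10 in KO. For the other mitochondrial genes the ranges of WT and KO overlapped.

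Mat2a, which encodes the enzyme that makes the methyl donor S-adenosylmethionine, had 4 kept bins in 1 run at chr6:72432900-72433299. All 4 lay 153.5 to 453.5 nt from the end of the gene. Each was called in 9 of 9 rescue lists, which gives 36 of 36 calls, and 1 further bin of Mat2a was dependent. No other gene of the 9 in the methionine list had a kept bin.

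Of the m6A machinery, 3 of 14 genes had a kept bin (21.4%, beside 13.7% over all genes). Igf2bp1, a reader of the mark, had 2 with 12 of 18 calls, Igf2bp2 had 1 called in all 9 lists, and the demethylase gene Alkbh5 had 1 called in 8. In the pluripotency list it was 5 of 27 (18.5%). Jarid2, a partner of the Polycomb complex PRC2, had 12 kept bins of which 12, 12 and 11 were called in KO+WT, 12, 12 and 12 in KO+5RK, and 12, 12 and 10 in KO+13RK. A run of 7 of these lay at chr13:44902175-44902874, and the gene also had 10 dependent bins. Nr0b1, a nuclear receptor gene of pluripotent cells, had its kept bin 139.5 nt from the start, in all 9 lists. Tfcp2l1 had 2 kept bins and Zfp42, which is also in the zinc finger list, had 1. No fibroblast marker and no marker of primed cells had a kept bin, where 1 and 0 of them had a bin in all 3 WT lists.

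DNA repair genes, which the series title names, had a kept bin in 5 of 41 cases (12.2%, below the 13.7% over all genes). Parp1, the sensor of DNA breaks, had 3, of which 2 were at the start, with 25 of 27 calls. Lig1, a DNA ligase, had 2 with 16 of 18 calls. The helicase gene Ercc3 had 1 called in all 9 lists and Xrcc5, the larger Ku subunit, 1 called in 8. In the list of p53 and cell cycle genes 6 of 23 had a kept bin (26.1%). Trp53 had 2. The start bin of Trp53, at chr11:69580360-69580459, scored 1.96, 2.05 and 1.74 in WT and 2.91, 3.13 and 3.61 in KO. It was called in 3 KO+WT lists, 1 KO+5RK list and 0 KO+13RK lists, whereas the other, at chr11:69586860-69586959, was called in all 9. Cdc20, an activator of the anaphase complex, had 1 in all 9 lists, while Ccnd1 and Ccng1 had 1 each in 8.

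Chromatin modifier genes had a kept bin in 10 of 48 cases (20.8%), and their 18 bins were called in 90.7% of KO+WT, 59.3% of KO+5RK and 46.3% of KO+13RK lists. Over all kept bins these shares were 87.4%, 78.2% and 75.0%, and over the 10 bins of the list outside Kat6b 83.3%, 73.3% and 66.7%. Kat6b, a histone acetyltransferase gene, held 8 of these 18. All 8 were called in each KO+WT list, 6, 3 and 1 in KO+5RK and 1, 3 and 1 in KO+13RK. The KO+WT lists of Kat6b lay above all 6 mutant lists. Its 8 kept bins lay within chr14:21668435-21669634, beside 14 dependent bins of the same gene. Of these 14, the lists called 12, 11 and 11 in KO+WT, 5, 5 and 1 in KO+5RK and 1, 1 and 1 in KO+13RK. The fall in Kat6b was thus not particular to its kept bins. Kdm5c, a histone demethylase gene, had 2 with 2, 2 and 2 calls in KO+WT, 1, 0 and 2 in KO+5RK, and 1, 0 and 1 in KO+13RK. Bptf and Dnmt1 had 1 kept bin each, called in all 9 lists.

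Zinc finger genes of the Zfp series had a kept bin in 10 of 84 cases (11.9%, below the 13.7% over all genes). The kept bins of Zfp106, Zfp445 and Zfp622 were called in all 9 lists. Among the long noncoding RNAs, 2 of 6 had a kept bin. Malat1 had 18 with 156 of 162 calls, 10 of them in 1 run, and Rmrp, the RNA of a ribonuclease, had 1 called in all 9 lists.

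By number of kept bins, the leading gene model was Gm20388 with 85. This model spans chr8:119910842-124021641 from its first to its last kept bin, is not a RefSeq gene and runs over several of them. Of its bins 31 lay in Gm39273, 15 in Zc3h18, 9 in Gse1 and 11 in no RefSeq gene on the strand. Its calls were 82, 81 and 79 in KO+WT, 84, 79 and 77 in KO+5RK, and 74, 81 and 71 in KO+13RK. The 16 bins filed under Fgfr2 likewise lay outside the RefSeq span of that gene, and some of them over Ctbp2 and Oat. Ncl, the nucleolar protein nucleolin, had 20 kept bins in its own span, of which 20, 20 and 20 were called in KO+WT, 20, 19 and 19 in KO+5RK, and 18, 20 and 19 in KO+13RK. Ncl had 2 dependent bins. Taco1 had 8, called 72 times out of 72.

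Akap12, a scaffold that anchors protein kinase A, had 21 kept bins and 17 dependent bins. Its kept bins were called in 16, 17 and 15 cases in KO+WT. They were called in 19, 12 and 2 cases in KO+5RK, where the lists disagreed widely, and in 1, 5 and 2 in KO+13RK. The KO+13RK lists of Akap12 lay below every KO+WT list. The same held for its 17 dependent bins. Of these, 4, 7 and 4 were called in KO+WT, 2, 2 and 0 in KO+5RK and 0, 0 and 0 in KO+13RK. The mean rank of the kept bins by enrichment in WT was 19.9.

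Whether any gene's bins differed over the rescue lines was tested for every gene and kind with 5 or more bins, 285 in all. None passed at an adjusted p of 0.05 (two-sided exact permutation tests over the 9 lists, Benjamini-Hochberg, 0%), and 62 had an unadjusted p under 0.05 (21.8%). The smallest p that 9 lists allow is 0.00357. For results at that p to pass by themselves, at least 21 of the 285 had to reach it, and 4 did. Those 4 were the dependent bins of Cit, Esrrb, Etl4 and Ncoa3. Of the 262 genes with 5 or more dependent bins, 60 had an unadjusted p under 0.05 (22.9%). Of the 23 genes with 5 or more kept bins, 2 did (8.70%). They were Kat6b, with 8 ± 0 bins called by KO+WT, 3.33 ± 2.52 by KO+5RK and 1.67 ± 1.15 by KO+13RK (n = 3, exact permutation p = 0.025, adjusted 0.188), and Dst. Dst, a linker of the cytoskeleton, had 12 kept bins, with 3, 8 and 7 called in KO+WT, 2, 2 and 0 in KO+5RK and 0, 0 and 2 in KO+13RK (exact permutation p = 0.0357, adjusted 0.188). Its 32 dependent bins were called in 10, 15 and 7 cases in KO+WT, 8, 5 and 1 in KO+5RK and 0, 0 and 2 in KO+13RK. Akap12 had an exact permutation p of 0.0821 and an adjusted p of 0.274. Fewer bins were called in KO+13RK than in KO+WT in 17 of the 23 genes (73.9%), below the 92.7% of the 262 genes with 5 or more dependent bins, a difference that was not tested. Gm47283, one of the 23, was called in no rescue list and could not be lower. Over all genes, KO+WT lists called 87.4% of kept and 62.3% of dependent bins, so the kinds start from unlike levels in these comparisons.

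**Figure D5:**
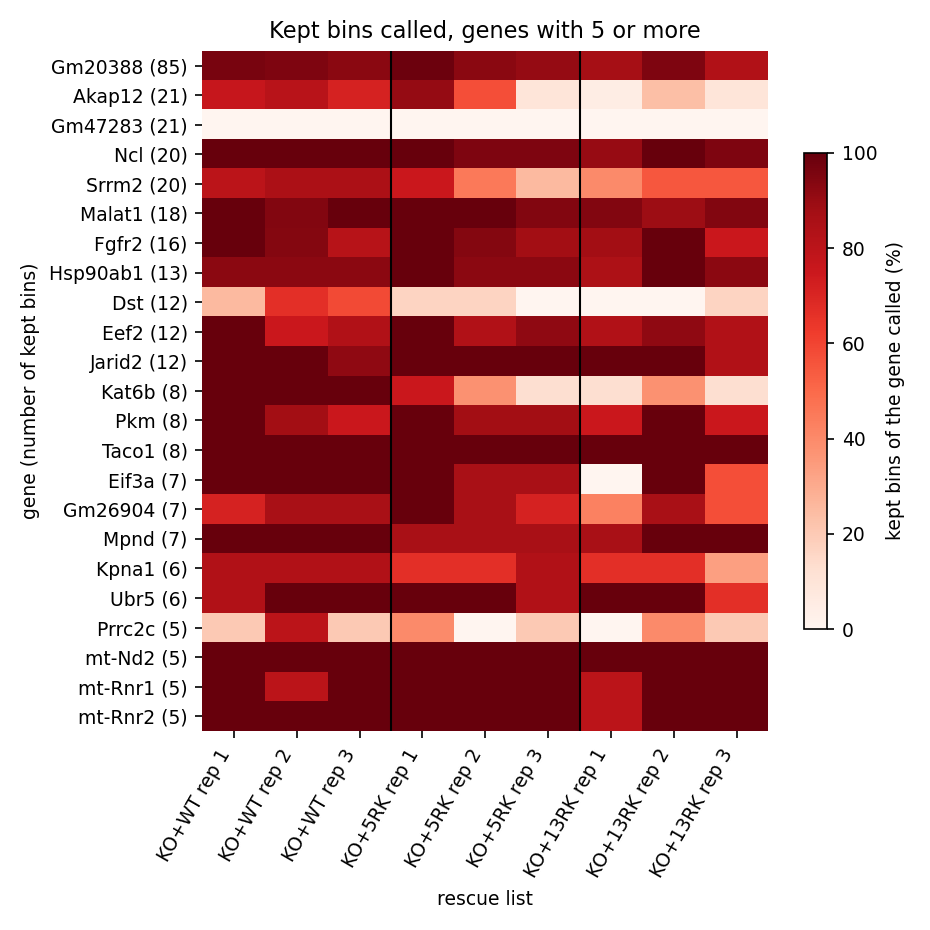
Percent of each gene's kept bins called in each of the 9 rescue lists, for the 23 genes with 5 or more kept bins, ordered by the number of kept bins (in brackets). Akap12, Dst and Kat6b pale from KO+WT to KO+13RK, Taco1 is called in full in every list, and Gm47283 is called in none.

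A few single bins were called in all KO+WT lists and in no KO+13RK list. By the fixed rule they were named from the highest ranks in WT. Nme7, a kinase gene of the nucleoside diphosphate kinase family, had such a bin at chr1:164329122-164329221, called in 1 KO+5RK list. The bin of Rad51b, a recombination gene, at chr12:79393252-79393351 was in no KO+5RK list. Those of Actr3, an actin branching subunit, and of Gzf1 were in 1 KO+5RK list, as was that of Trp53. The start bin of Hist1h4b (H4c2 in RefSeq) was in 2.

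The 29 kept bins that no rescue list held were unevenly spread over genes. Gm47283, a gene model on chromosome Y, accounted for 21 of them, which is every kept bin it had, between chrY:90811239 and chrY:90813838. The rows of Gm47283 numbered 25, 25 and 24 in the WT lists, 25, 23 and 23 in the KO lists and 0 in each of the 9 rescue lists. It is not a RefSeq gene, and a near-identical copy of it elsewhere could not be looked for here. With chromosomes Y and M left out, an alternative chosen after seeing the data, the lead of kept over dependent bins was 32.2 points (exact permutation p = 0.00391). Of the other 8 bins, Sfi1, a centrosome gene, held 2 at chr11:3180151-3180350, Dst 2, and Grk5, Srrm2, Prrc2c and Gm12359 1 each.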

How the data were processed

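Messenger RNA was fragmented and immunoprecipitated with a polyclonal m6A antibody, and stranded libraries were made, per the labels' protocols. STAR 2.5.3a, kallisto 0.43.0 and the build GRCm38 are named, per the submitters' processing notes, without their roles. No source used here gives the peak caller. The authors deposited 1 list of bins of 100 nt per immunoprecipitated library, so replicates were called separately. Each row holds an enrichment score, a p-value and a q-value of the authors, per the deposited files, and all q-values were under 0.05. Scores were used as ranks within a list and, in 1 alternative, for a minimum. Read depth is unknown, so a bin that was not called may still carry m6A.

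Members, gene lists and tests were chosen with earlier results of these data known. Bins were matched exactly and assigned to the gene in the list, and 1 bin listed under 2 genes went to the first identifier. Bins of overlapping gene models can cover the same RNA with an offset, and these were counted separately. An example is the kept bins of Gm28635 at chr2:84650540-84650639 and Ctnnd1 at chr2:84650572-84650671. A name table matched 664 of the 665 kept genes and RefSeq GRCm38.p6 matched 635, from which starts, ends and sequences came. Lists were the unit of every test (Python 3.11.15, numpy 2.4.6, pandas 2.3.3, scipy 1.17.1, and matplotlib 3.10.9 for figures), with p-values adjusted by Benjamini-Hochberg. The procedures were tested on simulated calls. Named were up to 4 genes per list and the 8 genes with most kept bins. For each pattern of calls, 6 bins were named by rank, and others as chosen afterwards. Alternatives were a q under 0.005, scores at or above the median of 1.36, lists of equal length (6328 bins), overlap by 50 nt, 2 of 3 lists, protein-coding genes, other distances, each replicate left out and a replicate block. Input libraries were not analysed here.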

Additional observations from a re-analysis of the deposited data

Results flagged for a closer look

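The lead of kept over dependent bins differed between the rescue lines by 13.0 points, from 25.1 in KO+WT to 38.1 in KO+13RK (two-sided exact permutation test over 9 lists, p = 0.00357). It is listed here because the same contrast was of a different size in different lines. It differed by 0.177 as log odds (exact permutation p = 0.354), an alternative chosen after seeing the data. The KO+13RK lists were the shortest of the rescue lists, with 9588 to 10980 rows. With all lists reduced to equal length the lead differed by 12.6 points (exact permutation p = 0.00714).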

How the results depend on the processing

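Depth is unknown, so a missing call may be a limit of detection. The number of kept bins was 509 at a q under 0.005, 98 at or above the median enrichment, 412 in lists of equal length and 2316 when 2 of 3 lists sufficed. At or above the median enrichment the lead by line was 8.33 points (exact permutation p = 0.561), the enrichment rank was 7.25 points higher in kept bins and 39.0% were near the start. As log odds the lead by line was 0.177. The share near the start was 15.9% in lists of equal length, 15.6% within 250 nt, 23.6% within 1000 nt and 16.4% with any RefSeq start. The share near the end was 10.9% within 1000 nt and 25.2% within 3000 nt. The difference between start and other kept bins turned to 5.33 points at or above the median enrichment, 2.97 in lists of equal length, 0.204 within 1000 nt and 2.92 with any RefSeq start. With each replicate left out it ran from -3.14 to 0.539, the latter without KO+WT replicate 3. The difference between KO+WT and KO+13RK in kept bins called then ran from 10.8 to 14.4, with a p over the lines under 0.05 without KO replicate 2, KO+5RK replicate 1 or KO+5RK replicate 3 (exact permutation p = 0.0464, 0.0393 and 0.0214).

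Same-numbered libraries did not deviate together over kept bins (correlations from -0.0480 to 0.0525, median -0.0216). For libraries of different numbers the correlations ran from -0.0957 to 0.0531, with a median of 0.0158. Whether same-numbered libraries were handled together was not tested by this. With the replicate block, the lead of 30.8 points and the rank difference of -14.2 each had p = 0.25, the smallest an exact sign-flip test over 3 blocks allows.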
